A study of Mus musculus with 15 samples.

Results

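Pdk4, Ucp3, Angptl4, Cpt1a, Cpt1b, Ppargc1a, Ppard, Acot2 and Mlycd, 9 of the 56953 genes in the deposited tables, were followed through all 15 libraries of a mouse study of muscle stem cell (MuSC) transplantation. They were taken by gene symbol, and each matched 1 row of the tables. The list was chosen with earlier measured values of these data known and no record of which, so expression levels in all 15 libraries and both contrasts count as values it was selected on. The genes were grouped as targets or regulators in the program that fatty acids and the peroxisome proliferator-activated receptors (PPARs) drive in fasting muscle. Their place in it was not tested. No group was fasted per the labels, which state free access to food and water.

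The animals were wild-type mice of strain 129, labelled as 10-week-old males, 10 in the study. MuSCs are the muscle stem cells that rebuild injured fibres. They were taken by biopsy before mice received their own MuSCs back (before 5, 6 and 11) and again afterwards, from muscle that had not been grafted (after 5, 6 and 11). Quadriceps femoris came from 6 transplanted mice (transplanted 4, 14, 94, 5, 6 and 11) and 3 sham-operated mice (sham 3, 192 and 12), numbered as in the sample titles. The labels give neither the interval after grafting nor the way MuSCs were purified, and they record the sham libraries under the same treatment entry as the transplanted ones, so shams were recognised by title. The study asked how the remaining MuSCs, and the hindlimb muscle, differed after transplantation.

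Estimated counts summed to between 17.09 M and 22.98 M in a library (M, mega), and 17873 to 20284 genes were detected. Levels are given in TPM, the abundance of a transcript scaled for its length and the library total. The X-inactivation transcript Xist exceeded the summed level of 4 Y-linked genes in 14 of 15 libraries, against the label of male. Those genes summed to 0.01 to 0.31 TPM, and the exception was transplanted 4, with 0.01 TPM of Xist and 0.11 TPM of Y-linked genes. Summed levels of 8 MuSC and myoblast markers were 1086 to 1804 TPM in MuSC libraries and 59.9 to 89.5 TPM in muscle. The 10 myofibre markers summed to 57412 to 76482 TPM in muscle and to 536 to 4561 TPM in MuSCs. The MuSC libraries thus held transcripts of these markers in differing amounts. The 6 slow-fibre markers did not separate the tissues, at 243 to 2588 TPM in MuSCs and 303 to 4328 TPM in muscle. The mitochondrial share of counts was 1.2% in after 11 and 4.44 to 6.28% in the other MuSC libraries. In bulk RNA, fewer cells of a type and less RNA per cell cannot be told apart.

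In fasting, fatty acids released from fat bind PPARs, which pair with retinoid X receptors on DNA and switch on genes for burning fat. PDK4, the kinase that Pdk4 encodes, inhibits the pyruvate dehydrogenase complex and so spares glucose. CPT1 enzymes admit long-chain acyl groups to mitochondria, malonyl-CoA blocks them, and malonyl-CoA decarboxylase (Mlycd) removes that block. FoxO factors and the glucocorticoid receptor also act on Pdk4.

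The stretches upstream of Pdk4, Ucp3 and Acot2 are shown because these genes stood high in the same muscle library. They come from RefSeq (GRCm38.p6), which gave a promoter for 7 of the 9 genes, and are cut before the first annotated exon. They lie at chr6:5496310-5496528 on the minus strand, chr7:100472741-100472989 on the plus strand and chr12:83987611-83987860 on the plus strand. Each reads 5′ to 3′ in the direction of the gene, and capitals mark AGGTCA, the core that nuclear receptors recognise.
Pdk4: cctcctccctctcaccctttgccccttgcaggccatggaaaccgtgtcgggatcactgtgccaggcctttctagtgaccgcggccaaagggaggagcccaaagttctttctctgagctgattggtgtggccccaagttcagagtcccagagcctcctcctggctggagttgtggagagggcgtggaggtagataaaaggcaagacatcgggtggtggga
Ucp3: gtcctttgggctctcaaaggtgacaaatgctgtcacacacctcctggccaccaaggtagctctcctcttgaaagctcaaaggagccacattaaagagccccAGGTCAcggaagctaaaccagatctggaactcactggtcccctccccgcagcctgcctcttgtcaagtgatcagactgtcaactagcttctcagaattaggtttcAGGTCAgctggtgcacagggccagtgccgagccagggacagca
Acot2: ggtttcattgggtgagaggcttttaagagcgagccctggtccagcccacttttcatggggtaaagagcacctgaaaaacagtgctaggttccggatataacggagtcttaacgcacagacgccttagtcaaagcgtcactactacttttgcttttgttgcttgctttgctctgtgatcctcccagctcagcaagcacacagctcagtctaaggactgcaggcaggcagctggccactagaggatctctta

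Windows of 300 bases, from 250 before to 50 after each start, were searched on both strands. AGGTCA occurred in 16.3% of 32851 such windows and in those of Ucp3 and Cpt1a among the 7 genes. In Ucp3 it lay 149 and 44 bases before the start, and in Cpt1a its reverse complement lay 94 bases before. The full PPAR element, AGGTCA repeated with 1 base between the copies, which therefore contains AGGTCA, was in 0.0396% of windows. The FoxO motif GTAAACA was in 3.65% and the glucocorticoid receptor motif, AGAACA and TGTTCT with 3 bases between them, in 0.00913%. The last 3 were in the windows of 0 of the 7 genes. With exact letters this rare among all windows, 0 of 7 was the likely outcome for any genes. It does not show that these genes lack such sites. A match describes letters only.

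Levels of 7 of the 9 genes did not overlap between muscle and MuSCs. The share of all genes without overlap between these tissues was not computed, so nothing is read from that count. The tables of MuSCs and muscle may have been scaled separately, so levels set across them are a description without a test. Ucp3, a mitochondrial carrier typical of mature muscle, was at 40.96 ± 6.23 TPM in sham muscle (SD, n = 3) and 46.4 ± 22.9 TPM in transplanted muscle (SD, n = 6). In MuSCs it had 1 count in all, in before 5, against 15794 counts over the 9 muscle libraries. Pdk4 averaged 12.8-fold higher TPM in muscle than in MuSCs, or 8.30-fold without transplanted 6. Ppargc1a averaged 7.31-fold and Mlycd 5.34-fold higher in muscle, and none of the 3 overlapped between the tissues.

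The 2 carnitine palmitoyltransferase genes were exchanged between tissues. Cpt1b, the muscle form, was at 72.8 to 112 TPM in muscle and at 0.41 to 3.18 TPM in MuSCs, 48.6-fold higher by the means. Cpt1a, the form of liver and many other cells, was at 1.30 to 2.29 TPM in muscle and 22.99 to 46.96 TPM in MuSCs, 20.2-fold higher in MuSCs. Cpt1a thus made up 92.9 to 99.1% of the pair's summed TPM in MuSCs and 1.48 to 2.50% in muscle. Its highest share was in after 11, the MuSC library with the lowest summed myofibre markers.

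Ppard, the PPAR delta receptor, had TPM 1.80-fold higher in MuSCs than in muscle, without overlap. The gap was narrow, with a lowest MuSC value of 10.47 TPM and a highest muscle value of 10.11 TPM. Acot2, a mitochondrial thioesterase that frees fatty acids from acyl-CoA, and Angptl4, a secreted inhibitor of lipoprotein lipase, overlapped between tissues. By mean TPM the order in sham muscle was Pdk4 (155), Cpt1b (88.8), Ucp3 (40.96), Mlycd (31.3), Ppard (7.23), Angptl4 (6.47), Ppargc1a (6.31), Acot2 (4.62) and Cpt1a (1.92). The sham ranges of neighbours in that order overlapped for Ucp3 with Mlycd, Ppard with Angptl4, Angptl4 with Ppargc1a and Ppargc1a with Acot2. In MuSCs before transplantation Cpt1a (36.3), Pdk4 (20.95) and Ppard (11.7) led.

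**Figure D1:**
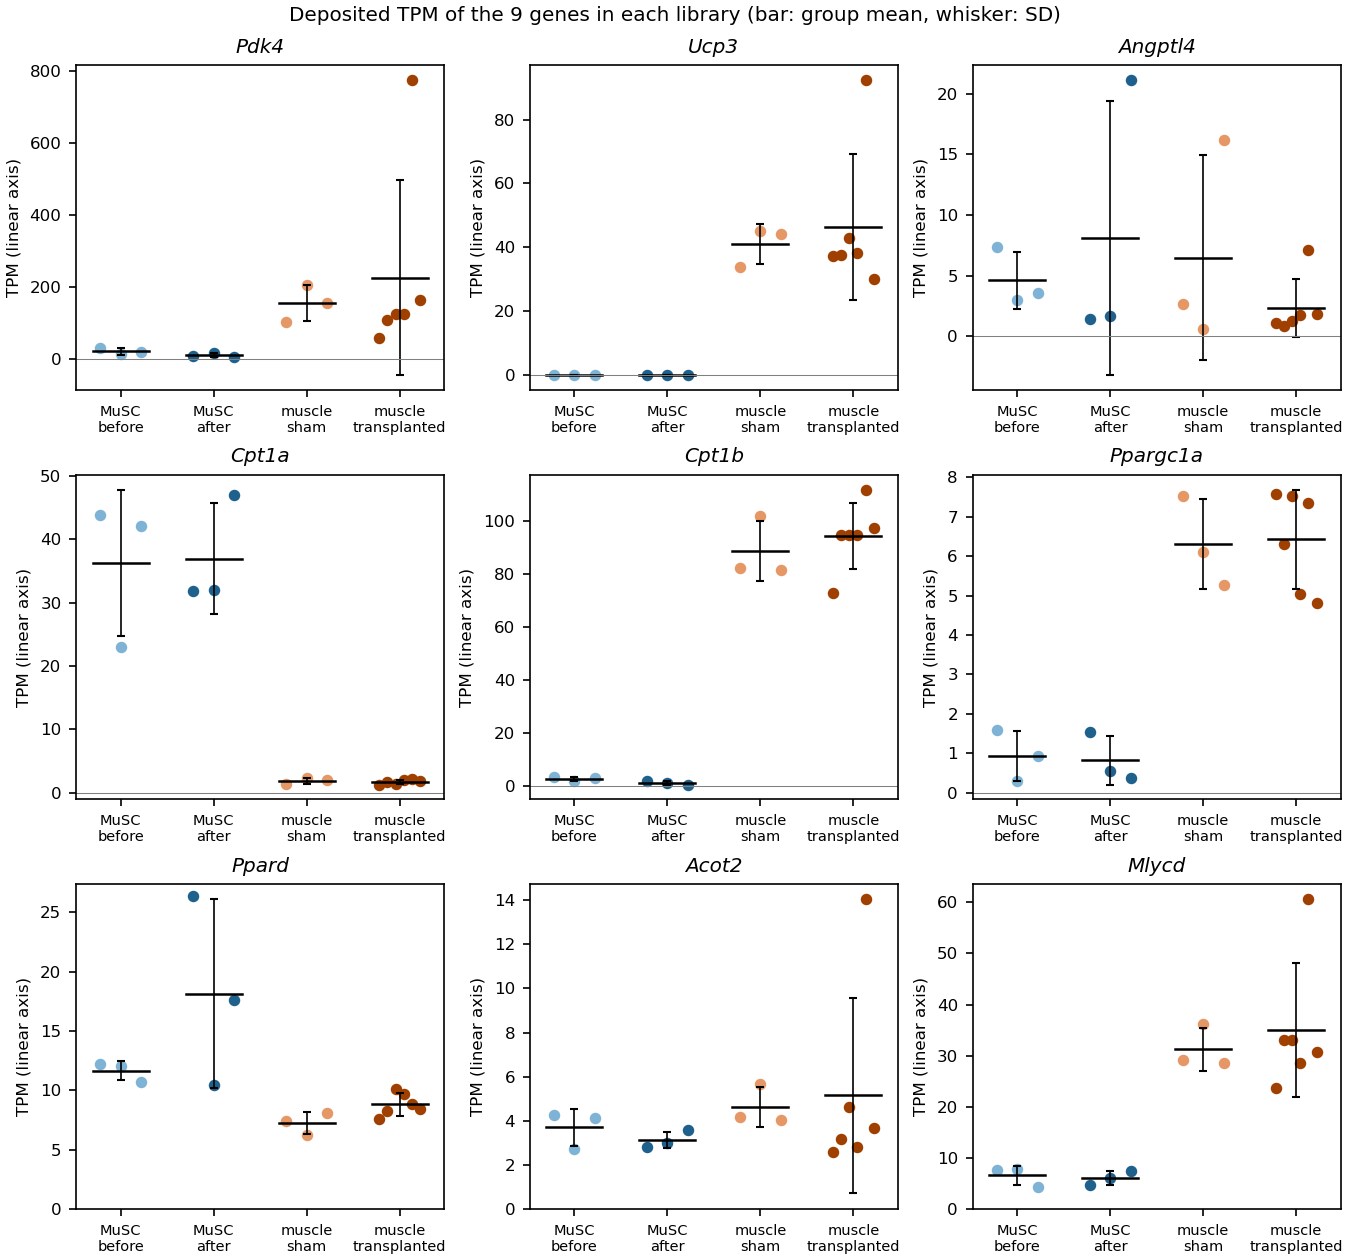
TPM (linear axes, 1 panel per gene) of the 9 genes in each of the 15 libraries, 1 point per library, with bars for the group mean and whiskers for the SD. Ucp3 is at or near 0 in MuSCs. Cpt1a and Cpt1b trade places between tissues, and Pdk4 runs from 58.5 to 776 TPM across muscle.

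Relatives that share a role with the members differed between tissues too. Pdk2, the other main muscle kinase of pyruvate dehydrogenase, was at 219 TPM in sham muscle and 7.67 TPM in MuSCs before transplantation. Pdk3 showed 0.413 TPM in sham muscle and 19.99 TPM in MuSCs before transplantation. Ucp2, a carrier related to Ucp3, was at 85.8 TPM in MuSCs before transplantation and 7.16 TPM in sham muscle. Acacb, which makes malonyl-CoA at the mitochondrion, was at 38.96 TPM in sham muscle and 0.64 TPM in MuSCs before transplantation. Ppara was at 2.28 TPM in sham muscle. In MuSCs it was at 1.01 TPM in before 5 and 0.86 TPM in after 5, and at 0 to 0.14 TPM in the other 4 libraries.

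In the muscle comparison (transplanted minus sham, tested with table as a term), 0 of the 9 genes passed edgeR's quasi-likelihood test at an adjusted p under 0.05. Over all 14375 genes tested the share that passed was 0.0%, with 7.08% at an unadjusted p under 0.05 and 0.0487% by DESeq2. Because the genes were chosen with these contrasts known, their differences are given as descriptions. In TPM, the transplanted and sham ranges overlapped for all 9, against 2.8% of genes without overlap. In CPM (counts scaled to a common total by edgeR's TMM factors) they overlapped for all 9 too, against 2.11% of genes without overlap.

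Pdk4 was at 103, 205 and 157 TPM in sham 3, 192 and 12. The transplanted libraries ran from 58.5 TPM (transplanted 4) through a median of 125 TPM to 776 TPM (transplanted 6). All transplanted libraries but transplanted 6 lay below sham 192, and the fitted difference was 0.03 ± 0.61 on the log2 scale (SE). Leaving out transplanted 6 turned it to -0.33. It was -0.65 without sham 12 and 0.57 without sham 192.

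Ucp3 was at 33.8, 45.0 and 44.1 TPM in sham 3, 192 and 12 and from 30.2 through a median of 37.9 to 92.4 TPM in transplanted libraries. Again the highest was transplanted 6, and without it the log2 difference went from 0.24 ± 0.28 to 0.01. The difference was -0.01 without sham 12 and 0.40 without sham 192.

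Acot2 stood at 4.16, 5.66 and 4.05 TPM in sham 3, 192 and 12, and at 2.58 to 14.1 TPM with a median of 3.43 TPM in transplanted libraries. Mlycd was at 29.1, 36.1 and 28.6 TPM in the shams in that order, and at 23.8 to 60.7 TPM with a median of 31.9 TPM after transplantation. Both peaked in transplanted 6. Their log2 differences, 0.07 ± 0.50 for Acot2 and 0.23 ± 0.25 for Mlycd, became -0.30 and 0.08 without it. In that order they were -0.51 and -0.11 without sham 12, and 0.35 and 0.40 without sham 192. Reads of Acot2 may be split with its near-copy Acot1, since both had fractional counts in 15 of 15 libraries, so their values are uncertain.

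The carnitine transferases and the regulators showed small differences. Cpt1b was at 82.6, 102 and 81.8 TPM in sham 3, 192 and 12 and at 72.8 to 112 TPM in transplanted libraries, a log2 difference of 0.21 ± 0.15 that became -0.07 without sham 12. Its counts were fractional in 10 of 15 libraries. Cpt1a differed by -0.09 ± 0.22 and Ppargc1a, a coactivator of mitochondrial genes, by 0.18 ± 0.12. Ppard was at 7.39, 6.23 and 8.08 TPM in the shams and at 7.57 to 10.1 TPM in transplanted libraries, with a difference of 0.31 ± 0.11.

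The 2 muscle tables did not give the same picture. Leaving out sham 12 leaves its table without a sham, so such fits nearly repeat the table with sham 3 and 192. The table with sham 3 and 192 gave a log2 difference of -0.65 for Pdk4, -0.51 for Acot2, -0.12 for Mlycd and -0.02 for Ucp3. The table with sham 12 alone, which also holds transplanted 6, gave 1.53, 1.13, 0.86 and 0.68 for the same genes. Cpt1b went from -0.07 to 0.70 and Cpt1a from -0.26 to 0.20. Angptl4, Ppard and Ppargc1a kept their sign in both, at -1.12 and -1.85, 0.22 and 0.45, and 0.06 and 0.37. With no table term Pdk4 differed by 0.75.

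**Figure D2:**
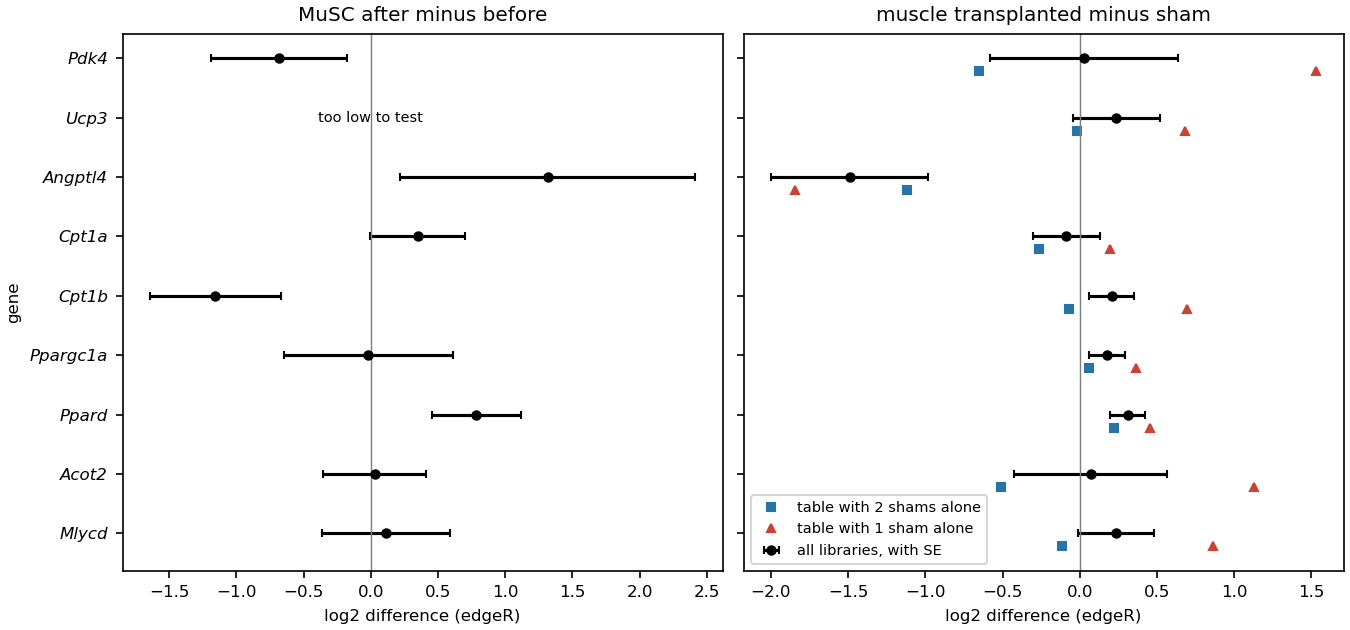
Log2 difference of each gene (black points, bars for the SE) in MuSCs and in muscle, with the value from the table with 2 shams alone (squares) and the table with 1 sham alone (triangles). Pdk4 in muscle sits at 0.03, between -0.65 and 1.53 in the separate tables.

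Transplanted 6 was described further after its values were seen. It was the highest of the 9 muscle libraries for Pdk4, Ucp3, Acot2, Mlycd and Cpt1b, 5 of the 9 genes, where 4.97% of all tested genes peaked in it. Its TPM was 6.18-fold the median of the other 8 libraries for Pdk4, 4.71-fold for Angptl4, 3.63-fold for Acot2, 2.43-fold for Ucp3 and 2.03-fold for Mlycd. A ratio of at least 2-fold was reached by 1.95% of tested genes, and the median ratio over all of them was 0.92. The rule that chose the genes used these libraries, so nothing is read from the excess.

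Among 75 tested genes of 10 fasting and fat-burning lists, transplanted 6 was highest for 22 and at least 2-fold the median of the others for 5. Over all tested genes the shares were 4.97% and 1.95%. The lists too were chosen with earlier results of these data known, so nothing is read from these counts. The 5 were Acot1 (6.08-fold), Fkbp5 (5.07-fold), Cebpd (2.30-fold), Pdp2 (2.06-fold) and Pparg (2.04-fold). Fkbp5, a classic glucocorticoid-induced gene, was at 28.8 TPM there and at 3.57 to 8.36 TPM in the other muscle libraries. The list of 12 fasting and glucocorticoid regulators it belongs to had a median ratio of 1.07. Tsc22d3 and Per1, also glucocorticoid-induced, were at 0.875-fold and 0.727-fold.

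Fatty acid uptake genes peaked in transplanted 6 for 6 of 6, with a median ratio of 1.46. Of all tested genes 4.97% peaked there, with a median ratio of 0.92, and nothing is read from the counts of these chosen lists. Fabp3, the heart and muscle fatty acid binding protein, was at 816 TPM against a median of 416 TPM. Beta-oxidation enzymes peaked there for 3 of 14, with a median ratio of 1.14. Among transcription factors, Foxo1 was at 4.19 TPM against a median of 2.79 TPM, Ppara at 2.58 against 2.06 TPM, and Klf15 at 17.0 against 18.2 TPM. The MuSC libraries of mouse number 6 held 17.2 TPM of Pdk4 after and 12.7 TPM before transplantation, the highest and the lowest of their groups.

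**Figure D3:**
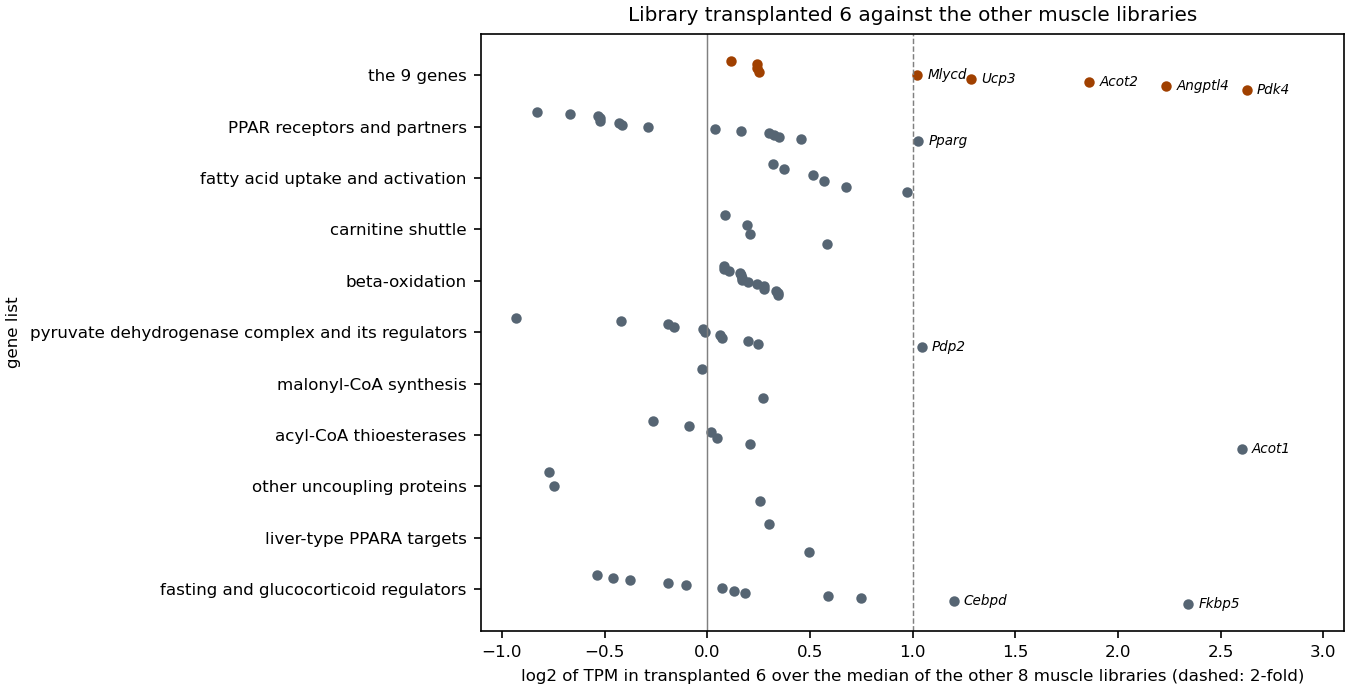
Log2 ratio of TPM in transplanted 6 to the median of the other 8 muscle libraries, 1 point per tested gene, by list, with 0 as a solid line and 2-fold as a dashed line. Pdk4, at 6.18-fold, is the highest point, and Acot1 is the highest of the other lists.

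Slow-fibre markers summed to 1682 TPM in transplanted 6 and to 303 to 4328 TPM over all muscle libraries. Its myofibre markers, at 67093 TPM, lay within the range of the rest. Its adipocyte markers summed to 629 TPM, above the other transplanted libraries (157 to 278 TPM) and below sham 12 (1455 TPM). The part of fat in the high Pdk4 was not tested.

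**Figure D4:**
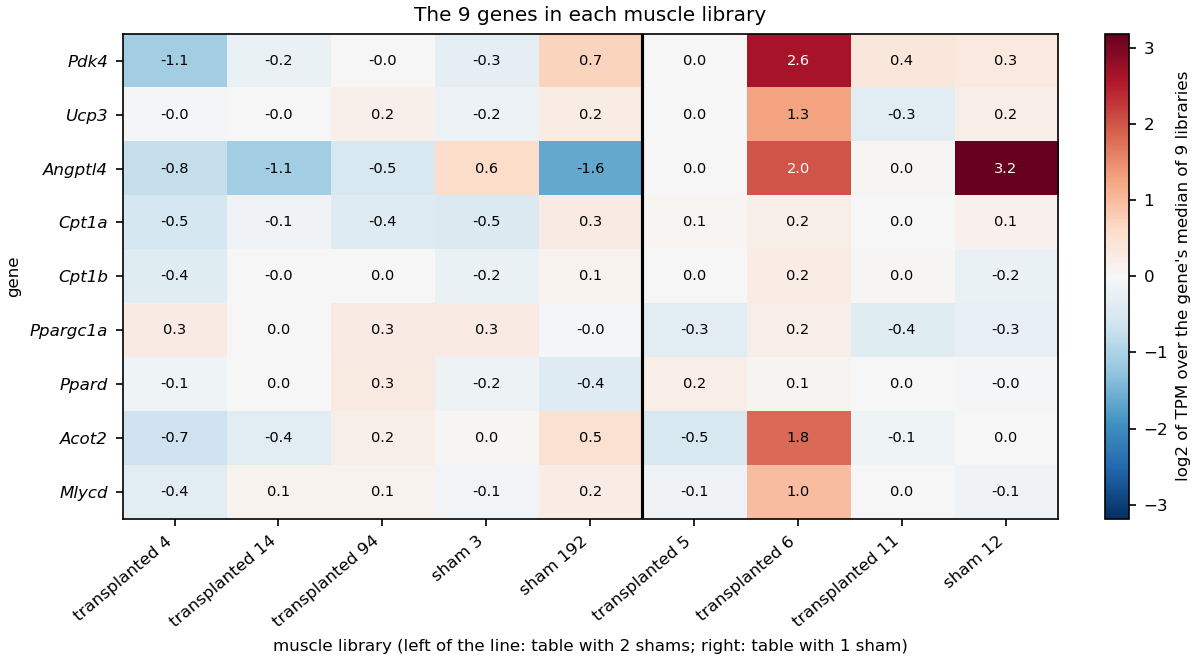
Level of each of the 9 genes in each muscle library as the log2 ratio of its TPM to that gene's median over the 9 libraries, with a line between the 2 tables. The column of transplanted 6 is high for Pdk4, Angptl4, Acot2, Ucp3 and Mlycd, and sham 12 is highest for Angptl4.

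Angptl4 was highest in muscle where fat markers were highest. It was at 2.67, 0.58 and 16.2 TPM in sham 3, 192 and 12, and at 0.82 to 7.13 TPM with a median of 1.51 TPM in transplanted libraries. The shams spanned the whole muscle range, and the fitted difference was -1.49 ± 0.51, or -1.11 without sham 12 and -1.91 without transplanted 6. The 8 adipocyte markers summed to 567, 214 and 1455 TPM in sham 3, 192 and 12. Adipoq, the adipocyte hormone adiponectin, was at 92.9 TPM in sham 12, 32.9 TPM in transplanted 6, 24.4 TPM in sham 3 and 3.35 to 11.1 TPM in the other 6. The 3 libraries with the most adipocyte markers were the 3 with the most Angptl4. Their part in the Angptl4 difference was not tested. All 8 adipocyte markers had negative log2 differences, median -1.43, and 7 of the 8 were below an unadjusted p of 0.05.

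**Figure D5:**
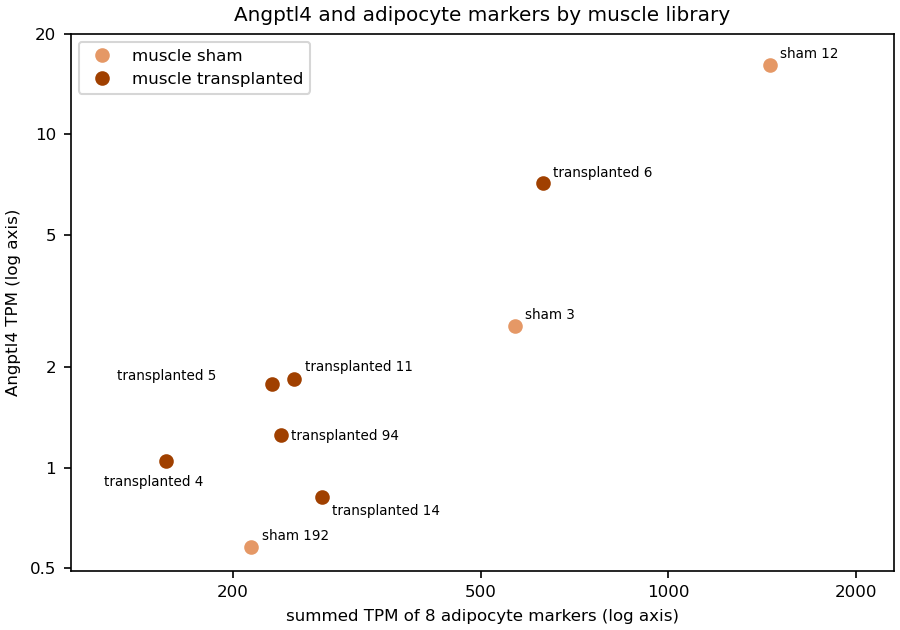
Angptl4 TPM against the summed TPM of 8 adipocyte markers in the 9 muscle libraries, both on log axes. Sham 12 is highest on both axes, at 16.2 and 1455 TPM, followed by transplanted 6.

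In MuSCs (after minus before, without a mouse term), 8 of the 9 genes were tested, Ucp3 being too low. Of these, 0 passed the adjusted threshold in edgeR. Of the 13512 genes tested 0.0% passed, with 2.26% at an unadjusted p under 0.05 and 0.118% by DESeq2. Ranges overlapped in TPM for all 9, against 5.47% of genes without overlap. In TMM-scaled CPM, 6.33% of genes did not overlap, 2.98% being lower afterwards, and 1 of the 8 was among the latter, Cpt1b.

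Cpt1b was at 3.18, 1.77 and 2.95 TPM in before 5, 6 and 11 and at 1.9, 1.23 and 0.41 TPM in after 5, 6 and 11. It was lower after transplantation in every mouse number, by -1.16 ± 0.49 on the log2 scale. The share of all genes lower in every mouse number is not given, so nothing is read from that direction. The scaled CPM were 5.00 to 6.12 before and 1.23 to 3.59 after. The 10 myofibre markers summed to 4157, 4561 and 2012 TPM in before 5, 6 and 11 and to 3841, 2142 and 536 TPM in after 5, 6 and 11, so the groups overlapped. Of their log2 differences 9 of 10 were negative, with a median of -0.76 that became -0.24 without after 11. Their part in the Cpt1b difference was not tested.

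Pdk4 was at 30.9, 12.7 and 19.3 TPM in before 5, 6 and 11 and at 9.52, 17.2 and 5.07 TPM in after 5, 6 and 11. It was lower afterwards in mice 5 and 11 and higher in mouse 6, and the log2 difference was -0.68 ± 0.50. It became -1.42 without after 6 and -0.38 without after 11.

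Angptl4 turned on 1 library. It was at 7.33, 3.01 and 3.52 TPM in before 5, 6 and 11 and at 1.42, 1.68 and 21.2 TPM in after 5, 6 and 11. The difference of 1.32 ± 1.10 became -1.31 without after 11. In after 11 adipocyte marker Fabp4 was at 19.6 TPM, the highest among MuSCs, while Adipoq, Lep, Retn, Cfd, Plin1, Cidec and Adrb3 were at 0.

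Ppard was at 12.2, 12.1 and 10.7 TPM in before 5, 6 and 11 and at 26.4, 10.5 and 17.6 TPM in after 5, 6 and 11, a difference of 0.79 ± 0.33. The value in after 6 lay below all those before transplantation. Cpt1a differed by 0.35 ± 0.35, or -0.00 without after 11, with TPM of 43.7, 22.99 and 42.1 before and 31.8, 32.0 and 46.96 after. Ppargc1a (-0.02 ± 0.63), Acot2 (0.03 ± 0.38) and Mlycd (0.11 ± 0.48) had differences within their SE.

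The MuSC libraries carry names in 2 styles, and the summed FPKM (fragments scaled for gene length and library total), in units of kilo-FPKM, followed them. It was 979 to 995 in after 6, after 11 and before 6 and 791 to 807 in the other 3. With name style as a term, the Angptl4 difference was 0.16, Ppargc1a 0.52 and Mlycd -0.24.

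The surrounding pathway showed small differences. In muscle, 58 of 75 tested genes of the 10 lists had a positive log2 difference, with a median of 0.12, while all genes had a median of -0.00. Without sham 12 the count was 32 of 75 and the median -0.03. With limma on log2(FPKM + 1) and all libraries they were 42 of 75 and 0.01. None passed the adjusted test. At an unadjusted p under 0.05 there were 4 higher and 1 lower, 6.67% of the 75 against 7.08% of all tested genes. The higher were Acot7 (0.41 ± 0.10), Pdk2 (0.29 ± 0.11), Tsc22d3 (0.37 ± 0.12) and Cebpd (0.86 ± 0.33). The lower was Acaca, the cytosolic enzyme that makes malonyl-CoA (-1.17 ± 0.36). Acaca was at 15.3, 4.26 and 24.8 TPM in sham 3, 192 and 12 and at 3.90 to 8.71 TPM in transplanted libraries, and its highest shams were also those richest in adipocyte markers, whose part was not tested. Its difference depended on single shams. It was -0.58 without sham 12, and -1.62 without sham 192, where it passed (edgeR adjusted p = 0.033).

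Beta-oxidation enzymes had positive differences for 14 of 14 in muscle, with a median of 0.18 and 0 past the adjusted test. That sign turned on sham 12, without which 1 of 14 was positive and the median was -0.18. Without sham 12 its table holds no sham, so the difference then comes from the table with sham 3 and 192. That table alone gave 1 of 14 for this reason, which is not a second result. The table with sham 12 alone gave 14 of 14 with a median of 0.74. With limma on log2(FPKM + 1) and all libraries, 11 of 14 were positive, with a median of 0.07. Myofibre markers were positive for 9 of 10, with a median of 0.21, and for 7 of 10 without sham 12. The pyruvate dehydrogenase list was positive for 10 of 11 in muscle, with a median of 0.12, and for 4 of 11 without sham 12. In MuSCs the same list was negative for 11 of 11, with a median of -0.29 and 0 past the adjusted test. It was negative for 9 of 11 without after 11 and for 10 of 11 without after 6. The median was -0.24 without after 11 and -0.66 without after 5. Over all lists in MuSCs, 26 of 71 were positive and 45 negative, with a median of -0.15, and 0 were below an unadjusted p of 0.05. Fgf21, a PPAR alpha target and stress hormone, was at 9.60, 11.2 and 3.89 TPM in before 5, 6 and 11 and at 4.35, 2.33 and 0.51 TPM in after 5, 6 and 11, lower in every mouse number. The log2 difference was -1.80, on 44, 34 and 7 counts in after 5, 6 and 11. Before 11 and after 11 also carry unlike name styles. The share of all genes lower in every mouse number is not given, so nothing is read from that direction.

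Across the 9 muscle libraries, log2 CPM centred within each table was correlated between genes, among 8704 genes with at least 5 CPM. These libraries share tables, depth and transplanted 6, and the values are a description without a test. The closest to Pdk4 were Acot2 (r = 0.97, or 0.89 without transplanted 6), Slc25a22 (0.96, or 0.86), Zfp277 (0.96, or 0.81), Mlycd (0.94, or 0.76) and Prdx1 (0.93, or 0.73). Spearman's rho with Pdk4 was 0.88 for Acot2 and 0.95 for Mlycd, and r was 0.87 and 0.85 without the 2 libraries farthest from the median. The closest to Ucp3 were Tacc2 (0.98, or 0.74), Ranbp6 (0.94, or 0.77), Cab39 (0.93, or 0.68), Cblb (0.92, or 0.75) and Zfp277 (0.92, or 0.44).

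Within the 9 genes, Pdk4 with Ucp3 had r = 0.87, which became 0.24 without transplanted 6, and Ucp3 with Acot2 went from 0.88 to 0.05. Pdk4 with Acot2 stayed at 0.89 and with Mlycd at 0.76. Pdk4 with Angptl4 had r = 0.10. Cpt1b with Mlycd had r = 0.80, and 0.95 without transplanted 6.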

How the data were processed

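RNA of 6 MuSC and 9 quadriceps libraries was sequenced in bulk. The authors deposited 3 tables with estimated counts, TPM and FPKM per gene, per the file headers. GRCm38 and mm10 are named in the submitters' processing notes, and no source used here gives an aligner. Start and end in the tables matched GENCODE (GRCm38) for 1446 of 52029 gene identifiers found in both, so file coordinates are not printed, and promoter coordinates are those of RefSeq. Another 3 columns of values matched no label and were not used. Counts were rounded and tested with edgeR 4.0.16 in R 4.3.3 (filterByExpr with a minimum count of 10, TMM, quasi-likelihood, 2-sided, Benjamini-Hochberg, threshold 0.05), with the table as a term in muscle. The SE is the log2 difference over the root of F. Alternatives used DESeq2 1.42.0, limma 3.58.1 on log2(FPKM + 1) or log2(FPKM + 0.1), other scaling, no filter, each table alone and left-out libraries. The fits were tested on simulated data.

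Members and lists were chosen with earlier results of these data known, and 1 gene of the lists is not reported here. The text names all 9 members, set relatives and the 2 most abundant genes of lists, and the 5 genes most like Pdk4 or Ucp3. Acot7, Cebpd and Pdp2 lie outside that rule and were named after their values were seen. Labels call the grafts autologous, so mouse numbers 5, 6 and 11 were read as the same mouse before and after. Deviations from group means correlated at 0.30, 0.36 and -0.40 for these mice. Unlike mouse numbers gave 0.55 (after 11 with before 6), 0.49 (after 5 with before 11) and otherwise negative values. The main MuSC fit held no mouse term, so its differences and SE are unpaired. With mouse number as a block the log2 difference was -1.27 for Cpt1b, -0.88 for Pdk4 and -0.13 for Angptl4. Nothing beyond the mouse numbers says that libraries came from separate animals. The p-values therefore set each difference against an estimate of the spread between these libraries, not between animals known to be separate.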

Additional observations from a re-analysis of the deposited data

Results flagged for a closer look

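Among 39 genes checked in the 6 transplanted libraries, 10 had a library far from the other 5, with a gap to its nearest neighbour past Dixon's 95% limit as a share of the range. Chance gives about 1 in 20 groups, but 5 of the 10 are genes chosen with these libraries' values known, so nothing is read from their number. Transplanted 6 was the high library for Pdk4 (775.5 TPM), Ucp3 (92.36 TPM), Angptl4 (7.13 TPM), Acot2 (14.06 TPM), Mlycd (60.73 TPM), Acot1 (3.98 TPM), Ehhadh (4.46 TPM) and Fkbp5 (28.76 TPM). Over all 14375 tested genes, 0.807% had transplanted 6 apart on the high side in the same way. Transplanted 4 was the low library for Cpt2 (19.43 TPM) and Pdk2 (216.54 TPM).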

How the results depend on the processing

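No gene passed in MuSCs with edgeR, and DESeq2 called 16. Leaving out each MuSC library gave 0 to 0. With mouse number as a replicate block 0 passed (214 at an unadjusted p under 0.05, against 305 without the block), and the block changed no call of a member, though the Angptl4 difference went to -0.13. In muscle the count was 0, and it was 12 with no filter, 7 by DESeq2, 1 in the table with sham 3 and 192 alone and 41 in the table with sham 12 alone, where the spread comes from the transplanted libraries only and the lone sham is assumed to vary like them. Leaving out each muscle library gave 0 to 4, with 4 without sham 192 and 2 without transplanted 94. At an unadjusted p under 0.05, the MuSC count of 305 became 3545 without after 5, 159 without before 5 and 151 without before 11, and the muscle count of 1018 became 499 without sham 12. The cause was not tested. No member passed under any alternative. The sign of the muscle difference changed in 6 of 17 alternatives for Pdk4, 5 for Acot2 and 2 each for Ucp3, Cpt1a, Cpt1b and Mlycd. For Ucp3, Cpt1b and Mlycd the 2 were leaving out sham 12 and the table with sham 3 and 192 alone, which are nearly the same fit. In MuSCs the sign changed in 3 of 13 for Angptl4, 1 for Cpt1a, 5 for Ppargc1a, 6 for Acot2 and 5 for Mlycd. It kept its sign in all of them for Pdk4, Cpt1b and Ppard in MuSCs and for Angptl4, Ppargc1a and Ppard in muscle. Ucp3 in MuSCs is limited by depth, at 1 count over 6 libraries.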

Other observations

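Acot7, a cytosolic acyl-CoA thioesterase picked out after its values were seen, was higher in both comparisons without overlap in TPM. It averaged 160 ± 61.3 TPM in MuSCs after and 101 ± 4.49 TPM before transplantation (SD, n = 3 each). In muscle it averaged 13.4 ± 0.503 TPM in transplanted (SD, n = 6) and 11.4 ± 0.576 TPM in sham libraries (SD, n = 3). Neither difference passed edgeR's adjusted test (adjusted p = 0.873 and 0.686). Over all tested genes, 5.47% in MuSCs and 2.8% in muscle did not overlap in TPM, in either direction. Perm1, a muscle regulator of mitochondrial genes, was at 74.1, 53.5 and 36.5 TPM in sham 3, 192 and 12 and at 41.2 to 93.5 TPM in transplanted libraries, with a log2 difference of 0.44. The difference was -0.13 in the table with sham 3 and 192 alone and 1.59 in the table with sham 12 alone.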
